A study of Homo sapiens with 8 samples.

Results

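Of 1286 genomic sites bound by CEBPB that could be measured in a reporter assay, 78 exceeded the typical scrambled sequence by more than 0.7 on the log2 scale in both HepG2 and K562 cells. They were chosen by these reporter values: reads were summed over the barcodes of each site, log2 RNA/DNA was taken in every transfection with a pseudocount of 1, the median over scrambled controls was subtracted, and the average over 2 transfections had to pass 0.7 in each line. A value of 0 is therefore the activity of the median scrambled control, and 1 is a doubling over it. HepG2 is a human hepatocellular carcinoma line and K562 a human leukaemia line. Both received the reporter plasmids by transfection with FUGENE reagent, and no other treatment is given in the labels. The 4 groups were HepG2 DNA, HepG2 RNA, K562 DNA and K562 RNA, each from replicate transfections 1 and 2, which makes 8 libraries. The plasmid carries the tested element in a luciferase reporter and a barcode in the 3′ untranslated region of the transcript, so that the RNA of an element is counted by its barcodes and divided by the DNA of the same barcodes. The elements were read out from transfected plasmids, not from their place in the chromosome.

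CEBPB is a basic leucine zipper transcription factor that binds DNA as a dimer, with itself or with other members of the C/EBP family. In liver cells it is known for acute phase and metabolic genes, and in blood for the myeloid lineage. Many genomic sites that a transcription factor occupies drive no reporter, and RNA polymerase II at promoter-distal sites is a known mark of active enhancers, which is the property the study's title addresses. The deposited table sorts each site into 1 of 6 classes whose names join a binding label (HepG2, K562, Shared) to a polymerase label (Pol2, NOPol2). They are read here as the line or lines of CEBPB binding and the presence or absence of the polymerase, a reading that the table itself does not state.

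Each element was tagged with 4 barcodes of 9 bases, and the barcodes show how an activity above the threshold came about. The 78 sites held 301 barcodes that passed the DNA minimum of 10 reads in all 4 DNA libraries, with 4 such barcodes at 67 sites and 3 at 11. The 4 barcodes of chr16:22308680, the site with the highest activity in its weaker line, are shown first because all of them reported alike. Those of chr2:169986622 and chr3:185435115 follow because 1 barcode of each carried the site above the threshold. Barcodes are given as deposited and wholly in capitals, since the whole barcode is the tag, and its strand is not stated in the table. The letters of the tested elements themselves were not used here.
chr16:22308680 barcode 1: AGGATGAAC
chr16:22308680 barcode 2: AGTGGCGCC
chr16:22308680 barcode 3: CACAGAATT
chr16:22308680 barcode 4: TACACTGCT
chr2:169986622 barcode 1: CGGCATGAT
chr2:169986622 barcode 2: GTCCGCATC
chr2:169986622 barcode 3: TATCGATTT
chr2:169986622 barcode 4: TGTATTCAT
chr3:185435115 barcode 1: CGAGCATCG
chr3:185435115 barcode 2: CTGTATACC
chr3:185435115 barcode 3: GATCACGGT
chr3:185435115 barcode 4: TTGAGGTGC

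Barcode values are log2 RNA/DNA less the same median over scrambled controls, averaged over transfections. At chr16:22308680 the value in HepG2 was 4.31 for AGGATGAAC, 4.11 for AGTGGCGCC, 3.96 for CACAGAATT and 4.13 for TACACTGCT. In K562 the same barcodes gave 3.58, 3.60, 3.50 and 3.71. All 4 barcodes thus lay far above the threshold in both lines. At chr2:169986622 the barcode TATCGATTT gave 4.42 in HepG2 and 3.99 in K562, whereas CGGCATGAT gave 0.47 and 0.35, GTCCGCATC gave 0.26 and -0.35, and TGTATTCAT gave -0.17 and -0.75. At chr3:185435115 CTGTATACC gave 2.60 in HepG2 and 2.27 in K562. The other barcodes of that site, CGAGCATCG, GATCACGGT and TTGAGGTGC, gave -0.02, -0.59 and -0.16 in HepG2 and 0.26, 0.28 and -0.0047 in K562. At these sites the element would not have met the rule from its remaining barcodes.

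Across all 301 barcodes, 260 exceeded 0.7 in HepG2, 255 in K562 and 234 in both. Every passing barcode was above 0 in both lines at 66 of the 78 sites, and above 0.7 in both lines at 43. The distance between the highest and lowest barcode of a site had a median of 0.59 in HepG2 (range 0.09 to 5.27) and 0.53 in K562 (0.07 to 4.90). The 12 sites with a barcode at or below 0 had a median of 566.5 DNA reads per library, with a range of 198 to 4794.25, against a median of 5812 at the other 66. The part of depth in this was not tested. The barcode of the highest RNA/DNA was then left out of every element, scrambled controls included, and the median over controls was taken anew. On that new 0, 70 of the 78 sites still met the rule and 8 did not, while 80 tested sites met it in all. Values before and after stand on different zeros, so a site could also rise. In its weaker line chr16:22308680 went from 3.61 to 3.74. The largest falls in the weaker line were at chr20:5130897, where the HepG2 and K562 averages went from 2.35 and 1.22 to 0.35 and -1.86, and at chr19:18589811, where they went from 2.65 and 1.59 to -0.26 and 0.77. At chr2:169986622 they went from 1.60 and 1.18 to 0.37 and 0.20, at chr3:185435115 from 0.74 and 0.73 to -0.06 and 0.35, and at chr6:52363006 from 0.995 and 1.001 to 0.54 and 1.07.

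The 8 libraries held between 9965393 and 10193122 reads. Of 1730 bound sites in the table, 1286 had the 3 passing barcodes that a test required, as did 1046 of 1365 scrambled controls. The 78 sites took between 4.21% and 4.27% of the DNA reads of tested elements, 15.9% and 16.6% of the HepG2 RNA reads, and 11.5% and 11.6% of the K562 RNA reads. The smallest RNA count of a site, summed over its barcodes, was 297 reads. Single barcodes had far fewer: ACAGTCGTA of chr20:5130897 had 1 read in K562 RNA of replicate 2. Nothing in the labels ties the replicates to separate cultures beyond their being independent transfections, and p-values measure the spread between these libraries.

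The 78 sites were 6.07% of tested bound sites (95% exact Clopper-Pearson interval 4.82 to 7.51, which like all intervals given here treats elements as sampled and covers no error between transfections). The same thresholds in both lines were passed by 12 of 1046 scrambled controls, 1.15% (0.594 to 1.995). Above a log2 of 1 in both lines there were 51 sites and 5 scrambled controls, and above 2 in both lines 10 sites and 0 controls. Of the 286 sites above the threshold in HepG2, 27.3% were also above it in K562 (22.2 to 32.8). Of the 122 sites above it in K562, 63.9% were also above it in HepG2 (54.7 to 72.4). RNA/DNA was tested against the typical scramble in edgeR's quasi-likelihood test, at a Benjamini-Hochberg adjusted p under 0.05. It was called higher at 77 of the 78 sites in each line, against 32.3% of tested sites in HepG2 and 18.7% in K562. Because the rule used these values, nothing is read from the count of 77. The exception in both lines was the K562-bound site without polymerase chr16:84314840, with a mean of 365.25 DNA reads.

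Sites bound in both lines and carrying the polymerase made up the largest group, although class played no part in the choice of the 78. Shared sites with polymerase contributed 29 of 150 tested, 19.3% (exact interval 13.3 to 26.6), and shared sites without it 9 of 116, 7.76% (3.61 to 14.2). K562-bound sites contributed 14 of 184 with polymerase, 7.61% (4.22 to 12.4), and 4 of 161 without, 2.48% (0.681 to 6.24). HepG2-bound sites contributed 15 of 377 with polymerase, 3.98% (2.24 to 6.48), and 7 of 298 without, 2.35% (0.95 to 4.78). In all, 58 of the 78 sites carried the polymerase, 74.4%, against 55.3% of tested sites, and 38 were shared, 48.7% against 20.7%. These shares are a description and carry no test.

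The make-up of the sites above the threshold in a single line is given beside this, with no test of the difference. Of the 208 sites above it in HepG2 alone, 139 carried the polymerase (66.8%) and 43 were shared (20.7%), while 99 were HepG2-bound sites with polymerase. Of the 44 sites above it in K562 alone, 31 carried the polymerase (70.5%) and 13 were shared (29.5%). Among shared sites with polymerase that passed in HepG2, 29 of 56 also passed in K562, 51.8% (exact interval 38 to 65.3), and among K562-bound sites with polymerase 14 of 27 did, 51.9% (31.9 to 71.3). Among HepG2-bound sites with polymerase it was 15 of 114, 13.2% (7.56 to 20.8). Without polymerase it was 9 of 25 shared sites, 36%, 4 of 19 K562-bound sites, 21.1%, and 7 of 45 HepG2-bound sites, 15.6%. In the other direction the order differed: of the sites with polymerase that passed in K562, 15 of 18 HepG2-bound sites also passed in HepG2, 83.3% (58.6 to 96.4), as did 29 of 41 shared sites, 70.7% (54.5 to 83.9), and 14 of 30 K562-bound sites, 46.7% (28.3 to 65.7). Without polymerase 9 of 10 shared, 7 of 15 HepG2-bound and 4 of 8 K562-bound sites did. The classes differed in how many tested sites passed at all. With polymerase, 114 of 377 HepG2-bound, 56 of 150 shared and 27 of 184 K562-bound sites passed in HepG2. In K562, 18, 41 and 30 of them passed. Without polymerase, 45 of 298 HepG2-bound, 25 of 116 shared and 19 of 161 K562-bound sites passed in HepG2. In K562, 15, 10 and 8 of them passed. The part of these pass rates in the shares was not tested. The 78 sites had more DNA reads than others, with a median of 4983.5 DNA reads per library against 3183.25 over tested sites, 2942 at sites above in HepG2 alone and 2102.62 at sites above in K562 alone. In sites with a mean of at least 2000 DNA reads, a limit set after seeing these medians, the share was 21.6% (24 of 111) for shared sites with polymerase, 9.21% (7 of 76) for shared sites without it, 8.8% (11 of 125) and 3.53% (3 of 85) for K562-bound sites with and without it, and 4.26% (12 of 282) and 2.76% (5 of 181) for HepG2-bound sites. The order of the classes with polymerase was the same in these deeper sites, and the part of DNA depth in the choice of sites was not tested.

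Activity was spread over a wider range in HepG2 than in K562. The 78 sites ranged from 0.71 to 5.28 in HepG2 with a median of 1.998, which is 3.99 times the typical scramble. In K562 they ranged from 0.72 to 3.61 with a median of 1.24, or 2.36 times the typical scramble. In HepG2 39 sites exceeded 2 and 15 exceeded 3, and in K562 16 exceeded 2 and 1 exceeded 3. The SD between transfections had a median of 0.10 in HepG2 and 0.12 in K562 and reached 0.54 and 0.50. All 4 transfection values were above 0.7 at 64 sites and above 1 at 45. Across the 78 sites the averages of the lines had a correlation of 0.43 (Pearson) or 0.50 (Spearman), a description over sites that share libraries and were chosen on both axes. The lists of the 10 highest sites in each line had 2 sites in common.

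The highest values in the weaker line came from sites of several classes. HepG2-bound chr16:22308680, without polymerase, gave 3.95 and 4.31 in the HepG2 transfections and 3.69 and 3.54 in the K562 transfections, means of 4.13 ± 0.25 and 3.61 ± 0.10 (SD, n = 2), or 17.5 and 12.2 times the typical scramble. Its 6276 to 6576 DNA reads stood against 62234 to 81688 RNA reads. Shared chr16:66550768, with polymerase, gave 3.48 and 3.63 in HepG2 and 2.99 and 2.97 in K562. HepG2-bound chr16:3156472, with polymerase, gave 4.06 and 4.38 in HepG2 and 2.66 and 2.82 in K562. These 3 sites on chromosome 16 led the list, and at each of them both HepG2 values lay above both K562 values.

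Sites of nearly equal activity in both lines stood beside them. Shared chr5:5351641, with polymerase, gave 2.30 and 2.47 in HepG2 and 2.39 and 2.43 in K562, so that the lines overlapped. Shared chr14:62019762, with polymerase, gave 2.26 and 2.30 in HepG2 and 2.17 and 2.12 in K562. The fitted difference between lines was -0.03 with an SE of 0.09 at the first and 0.13 with an SE of 0.13 at the second, neither of which passed the test (edgeR adjusted p = 0.869 and 0.597). The remaining sites of the 10 highest were K562-bound chr21:23563028 at 2.92 and 2.30 in HepG2 and K562, HepG2-bound chr20:40322133 at 3.20 and 2.27, shared chr10:80218871 at 5.28 and 2.20, shared chr14:102414376 at 2.75 and 2.15, all with polymerase, and HepG2-bound chr9:132258304, without it, at 2.54 and 2.01.

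Activity at 41 of the 78 sites was higher in HepG2 and at 9 higher in K562 by the test of the difference between lines, and 28 were not called. This test is the contrast of RNA/DNA in HepG2 against RNA/DNA in K562 in edgeR's quasi-likelihood fit over all 2332 tested elements, with Benjamini-Hochberg adjustment over all of them. Over all tested bound sites 19.1% were called higher in HepG2 and 5.29% higher in K562. The rule set a floor in each line and not the difference, but it used the values of both lines, so the counts among the 78 are not independent of how they were chosen. The fitted difference had a median of 0.55 over the 78 sites and 0.09 over tested sites. Called differences ran from 0.34 to 4.17 where HepG2 was higher and from -1.54 to -0.42 where K562 was higher, and differences that were not called ran from -0.42 to 1.14. The values of the transfections did not overlap between lines at 52 sites with HepG2 higher (40.7% of all tested sites) and at 12 with K562 higher (20.5% of all tested sites), and overlapped at 14. Of the 12 sites with a barcode at or below 0, 0 were called higher in HepG2, 1 was called higher in K562 and 11 were not called. A fit without 1 transfection leaves a line with 1 DNA and 1 RNA library. These are assumed to vary like the other groups, so a lost call does not show a smaller difference. Over these fits the median fitted difference of the 78 sites lay between 0.55 and 0.61, against 0.09 to 0.11 over tested sites. With the median over barcodes in place of their sum, limma called 21 sites higher in HepG2 and 3 higher in K562, where over all tested sites it called 7.78% and 1.09%.

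The 5 sites with the largest excess in HepG2 were all shared sites with polymerase. At chr1:160983700 the HepG2 transfections gave 5.02 and 5.44 and the K562 transfections 0.68 and 1.38, a fitted difference of 4.17 with an SE of 0.26 (edgeR adjusted p = 4.62e-06). Its K562 values lay on either side of the threshold, and its 4 barcodes ran from 0.54 to 1.62 in K562 and from 4.70 to 5.62 in HepG2. At chr6:7058754 the values were 4.63 and 4.37 in HepG2 and 0.97 and 1.37 in K562, a difference of 3.31 with an SE of 0.20 (edgeR adjusted p = 2.64e-06). At chr10:80218871 they were 5.21 and 5.35 in HepG2 and 2.21 and 2.18 in K562, a difference of 3.08 with an SE of 0.09 (edgeR adjusted p = 4.73e-08). This site was the most active of the 78 in HepG2, at 38.9 times the typical scramble, and reached 4.58 times in K562. Shared chr2:11970465 gave 4.23 and 4.45 against 1.64 and 1.72, and shared chr20:343211 gave 3.63 and 3.84 against 1.22 and 1.04. Their differences were 2.66 and 2.60 (edgeR adjusted p = 1.43e-06 and 1.17e-06).

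None of the 9 sites called higher in K562 was HepG2-bound: 4 were K562-bound sites with polymerase, 3 shared sites with it and 2 shared sites without it. Sites called higher in K562 were 14.7% of all tested K562-bound sites with polymerase, 8.67% and 4.31% of shared sites with and without it, 4.97% of K562-bound sites without it, and 1.59% and 3.02% of HepG2-bound sites with and without it. K562-bound chr10:17038369 gave 0.85 and 0.72 in HepG2 and 2.21 and 2.41 in K562, a difference of -1.54 with an SE of 0.24 (edgeR adjusted p = 0.00186). It had a mean of 484.75 DNA reads, and its barcodes ran from -0.38 to 0.91 in HepG2 and from 0.01 to 2.71 in K562. Shared chr2:72110231, with polymerase, gave 1.89 and 1.87 in HepG2 and 2.85 and 2.89 in K562, a difference of -0.99 with an SE of 0.08 (edgeR adjusted p = 2e-05). Its barcodes did not overlap between lines, at 1.74 to 2.05 in HepG2 and 2.61 to 3.05 in K562. K562-bound chr5:43075624 gave 1.40 and 1.22 against 2.30 and 2.28, and K562-bound chr6:7151008, the most deeply covered of the 78, gave 1.30 and 1.39 against 2.23 and 2.22. Their differences were -0.99 and -0.89 (edgeR adjusted p = 0.000103 and 2.49e-05), and the barcodes of each again did not overlap between lines. Shared chr21:46388115, without polymerase, gave 0.87 and 0.85 against 1.62 and 1.41, a difference of -0.66 (edgeR adjusted p = 0.00342), which did not pass without HepG2 replicate 1 or 2 (edgeR adjusted p = 0.0713 and 0.0833) or when barcodes entered by their median (limma adjusted p = 0.103).

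Among the 29 shared sites with polymerase, 20 were called higher in HepG2, 3 higher in K562 and 6 were not called. Their median was 2.38 in HepG2 and 1.47 in K562. Beside those already described, shared chr16:87887297 reached 3.96 in HepG2 and 1.64 in K562, chr6:43692934 reached 3.95 and 1.68, chr9:6080360 reached 2.97 and 1.74, chr11:46264863 reached 2.87 and 1.31, and chr22:46431654 reached 2.75 and 1.82. Shared chr20:22392623 was called higher in K562 at 1.87 and 2.35, as was chr16:30787323 at 1.07 and 1.55. At the lower end chr19:4058420 was at 1.10 and 1.14 and chr22:25125033 at 0.74 and 0.85. Over all tested shared sites with polymerase 33.3% were called higher in HepG2.

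The 9 shared sites without polymerase lay lower, with medians of 0.95 in HepG2 and 1.01 in K562 and a highest value of 1.61. That was chr10:46962660, at 1.61 and 1.60 in the HepG2 transfections and 1.26 and 1.27 in K562, the site of this class called higher in HepG2 (edgeR adjusted p = 0.031), as were 12.1% of all tested sites of the class. Those called higher in K562 were chr21:46388115 and chr4:107208595, the latter at 0.77 and 0.91 in HepG2 and 1.27 and 1.25 in K562. Of the 6 not called, chr2:72161813 was at 1.06 and 1.01 and chr6:52363006 at 0.995 and 1.001.

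Among the 18 K562-bound sites, 10 were called higher in HepG2 and 4 higher in K562, the line of their binding. Of the 14 with polymerase, 7 were called higher in HepG2, 4 higher in K562 and 3 were not called, against 7.61% and 14.7% of all 184 tested sites of that class. K562-bound chr10:103489821 gave 3.77 and 3.89 in HepG2 and 1.64 and 1.83 in K562, and chr3:5036755 gave 3.45 and 3.46 against 1.497 and 1.45. In both cases the HepG2 values lay above the K562 values by more than the spread between transfections. Of all tested K562-bound sites without polymerase 11.2% were called higher in HepG2 and 4.97% higher in K562. Of the 4 among the 78, 3 were called higher in HepG2, led by chr22:30601908 at 2.99 and 2.96 against 1.16 and 1.43, followed by chr18:46461173 at 2.16 and 0.87 and chr4:154435991 at 1.49 and 0.96.

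Of the 15 HepG2-bound sites with polymerase, 6 were called higher in HepG2 and 9 were not called, where 28.9% of all tested sites of that class were called higher in HepG2. Beside chr16:3156472 and chr20:40322133, chr20:31053498 reached 3.18 in HepG2 and 1.43 in K562 and chr1:56927058 reached 3.13 and 1.11. Both were called higher in HepG2. Those not called included sites of like activity in both lines, such as chr1:19664749 at 1.56 and 1.58, chr19:2576178 at 1.03 and 0.96 and chr13:76033382 at 0.93 in both. Also not called was chr14:34966212 at 1.40 and 1.61, where the K562 transfections (1.70 and 1.52) lay above the HepG2 transfections (1.33 and 1.47). So was chr20:5130897 at 2.35 and 1.22, with a fitted difference of 1.14 and an SE of 0.47. Of all tested HepG2-bound sites without polymerase 13.8% were called higher in HepG2. Of the 7 among the 78, 4 were, including chr16:22308680 with a difference of 0.52 (edgeR adjusted p = 0.0248) and chr2:192242126 at 2.27 and 1.14.

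Of the 78 sites, 54 had their own scrambled control tested. These controls are among the 1046 whose median sets the 0 of the scale and which scale the libraries, but the value of a site's own control did not enter its choice in any other way. A further 3 controls were in the table with too few passing barcodes, and for 21 sites the table held none. The median of the 54 controls was 0.04 in HepG2 and 0.0011 in K562, close to that of all scrambles, at -0.01 in both lines. They ranged from -0.51 to 1.27 in HepG2 and from -0.99 to 1.95 in K562, with an SD over controls of 0.38 and 0.44 against 0.37 and 0.37 for all scrambles. The test called 14 of them above the typical scramble in HepG2, 25.9% against 13% of all tested scrambles, and 7 in K562, 13.0% against 6.12%. The HepG2 count was 5 without HepG2 replicate 1, 6 without HepG2 replicate 2 and 3 with the median over barcodes (limma), where 4.49%, 4.68% and 1.91% of all scrambles were called. In K562 it was 3 with the median over barcodes and 11 in DESeq2, where 1.05% and 10.04% of all scrambles were called. Sites exceeded their own control at 53 of 54 in HepG2, by a median of 1.68, and at 51 of 54 in K562, by a median of 1.41, values that follow in part from the rule.

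At 5 sites the control itself averaged above 0.7 in a line. In HepG2 these were 3 of 54 controls, 5.56% against 4.49% of all tested scrambles. In K562 they were 4 of 54, 7.41% against 1.91%. The differences from all scrambles were not tested. The control of chr16:22308680 gave 1.18 and 1.22 in HepG2 and 1.94 and 1.97 in K562 (edgeR adjusted p = 1.64e-07 and 2.27e-08), and the site exceeded it by 2.93 and 1.66. At chr16:46929966 the control was higher than the site in both lines, at 1.22 and 1.31 against 0.82 and 0.89 in HepG2 and at 0.76 and 0.96 against 0.76 and 0.76 in K562. The control values lay above those of the site in HepG2 and were level with them in a K562 transfection. At chr2:171600872 the control gave 1.09 and 1.03 in K562 against 0.63 and 0.88 for the site, and at chr2:20876185 it gave 0.82 and 1.01 against 0.95 and 0.62. In HepG2 these sites stood above their controls by 0.76 and 1.40. The control of chr16:75340243 gave 0.77 and 0.66 in HepG2 against 0.96 and 0.65 for the site, so that the values overlapped.

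The 78 sites lay on 20 chromosomes, with 9 on chromosome 16, 8 on each of chromosomes 2 and 6 and 7 on chromosome 1. Relative to the sites tested there, these were 9.28%, 6.25%, 7.02% and 5.69%. Chromosomes 12, 15 and 17 held 45, 23 and 57 tested sites and 0 of the 78. Another tested site lay within 10 kb of 7 of the 78, 8.97%, as it did for 9.18% of tested sites. None of the 9 neighbours was itself above the threshold in both lines, against 6.07% of all tested sites. With 9 neighbours nothing is read from that. Nearest was chr16:30786719, a HepG2-bound site with polymerase 604 bases from chr16:30787323, with averages of 1.31 in HepG2 and 0.68 in K562, just under the threshold. At 1235 bases from chr10:74080695, which averaged 2.17 and 0.82, the HepG2-bound site chr10:74079460 was at 0.09 and -0.02. Within 9567 bases of chr3:5036755 there were 3 tested sites, which lay between -0.21 and 0.41 in HepG2 and between -0.30 and 0.69 in K562. Near chr20:343211 the shared site chr20:352563, 9352 bases away, reached 1.87 in HepG2 and 0.38 in K562, and near chr1:230844463 the HepG2-bound site chr1:230851419, 6956 bases away, was at -0.06 and 0.84. The sites near chr14:62019762 and chr16:87887297 averaged 0.69 and 0.23 in HepG2 and -0.04 and 0.34 in K562. Positions are single coordinates as deposited, and hg19 is named in the submitters' processing notes without a role. No gene annotation of that build was used here, and sites are therefore given without genes.

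The sites nearest the threshold were picked by the value in their weaker line. Just inside it were HepG2-bound chr6:1389881 without polymerase, at 0.33 and 1.09 in HepG2 and 0.75 and 0.99 in K562, HepG2-bound chr16:75340243 with polymerase, at 0.96 and 0.65 and at 0.62 and 0.82, and shared chr3:185435115 without it, at 0.76 and 0.71 and at 0.54 and 0.92. Just outside were K562-bound chr5:42995098, at 0.89 and 0.88 in HepG2 and 0.77 and 0.63 in K562, shared chr20:3961531, at 2.07 and 1.92 and at 0.62 and 0.74, and HepG2-bound chr15:66125145, at 1.36 and 1.31 and at 0.65 and 0.72, all with polymerase. The spread between transfections in the weaker line was larger at each of these sites than its distance from 0.7, and 14 of the 78 sites had a transfection at or below it.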

How the data were processed

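The deposited table holds read counts per barcode and library, whole numbers with no normalization stated, per the file headers. Totals of the 4 DNA libraries were nearly equal, at 10130870 to 10136366. The headers do not say whether counts were brought to a common depth. The submitters' processing notes name cutadapt and hg19 without saying what each was used for, and no counter is named in them. A barcode was kept where each DNA library had 10 or more of its reads, and an element where 3 or more barcodes were kept. Counts were summed per element, 2332 in all. Libraries were scaled by TMM on scrambled controls, and edgeR 4.0.16 (R 4.3.3) was fitted to the 4 groups without a block. The SE of a fitted difference is its size divided by the square root of the quasi-likelihood F statistic. It therefore restates the test and is not a separate estimate. Alternatives used DESeq2 1.42.0 and limma 3.58.1.

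The sites, the lists and the tests were chosen with earlier results of these data known. Sites named in the text are the 10 highest in their weaker line, the 5 largest called differences each way, those with an own control above 0.7, the 3 on either side of the threshold, the 5 largest falls without the highest barcode, those with a tested neighbour within 10 kb and the highest of each class. Other sites were named to describe their class after their values were seen.

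Same-numbered libraries shared a sequencing lane, per the labels' protocols, so the numbers pair them. The difference of replicate 1 less replicate 2 correlated over elements at 0.57 between HepG2 DNA and K562 DNA. Between DNA and RNA of the same line it was 0.29 in HepG2 and 0.22 in K562. The remaining pairs, all across lines, gave 0.15 to 0.36. Summing lets a barcode with many RNA reads dominate its element, and reads without molecular identifiers are not independent molecules. Intervals are on shares of elements and cover neither read counting nor the spread between transfections.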

Additional observations from a re-analysis of the deposited data

Results flagged for a closer look

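The difference between cell lines was tested in each site, and it passed with HepG2 higher at 41 of the 78 sites and with K562 higher at 9, against 19.1% and 5.29% of all tested sites. The values of both lines had been used to choose these sites, so the counts are not independent of that choice. Among the named sites, this difference on the log2 scale was 4.17 at chr1:160983700, 3.31 at chr6:7058754, 3.08 at chr10:80218871, 2.66 at chr2:11970465 and 2.60 at chr20:343211, where HepG2 was higher. It was -1.54 at chr10:17038369, -0.99 at chr2:72110231, -0.99 at chr5:43075624, -0.89 at chr6:7151008 and -0.66 at chr21:46388115, where K562 was higher.

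Elements with 1 or 2 passing barcodes entered no comparison but the alternative with no minimum count, and some of them would have met the thresholds. Of 381 such sites 27 averaged above 0.7 in both lines, 7.09% (95% exact interval 4.72 to 10.1), against 10 of 260 such scrambled controls, 3.85% (1.86 to 6.96). The difference was not tested.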

How the results depend on the processing

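The number of sites that met the rule was 127 with a threshold of 0.5 and 51 with 1. It lay between 77 and 85 with a transfection left out, and between 74 and 103 under the other alternatives run on it. These minimum counts change how many sites are tested. The 74, with at least 50 reads per barcode, were 6.40% of tested sites. The 103, with no minimum count, were 5.95%, against 6.07% in the main setting. Of the 78 sites, 67 were kept when the median over barcodes was used. With the median over barcodes (limma), the number called higher in HepG2 was 21 and in K562 3, and own controls called were 3 in HepG2 and 3 in K562. DESeq2 called 11 controls in K562. Leaving out a transfection gave 31 to 40 sites higher in HepG2, 5 to 6 higher in K562, 5 to 15 controls called in HepG2 and 5 to 7 in K562. The median fitted difference of the 78 sites was 0.50 with TMM over all elements, 0.52 with no minimum count and 0.47 without the highest barcode, and 0.55 to 0.61 with a transfection left out. The fit with the replicate number as a block called 43 sites higher in HepG2 and 9 in K562, with 14 and 8 controls called, and a block within each line gave 42 and 8 sites. Neither block moved a count by over 1.5 times or changed the call of a named line difference. In the 66 sites whose barcodes were all above 0, a choice made after seeing the data, 41 and 8 were called. The cause of these shifts was not tested, though a fit without a transfection leaves a line with 1 DNA and 1 RNA library, assumed to vary like the other groups. Of the 10 named line differences, all kept their direction in the 12 refits of each. Calls were lost at chr21:46388115 without either HepG2 transfection and with the median over barcodes, and at chr6:7151008 with that median alone (limma adjusted p = 0.0654). Among the 12 sites with a barcode at or below 0 the median DNA count was 566.5, and the part of depth was not tested.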

Other observations

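Among all 1046 tested scrambled controls, 54 belonged to sites among the 78. Of the 12 controls above the threshold in both lines, 2 did. The others included the control of chr16:87561818, at 1.81 and 1.60 in the HepG2 transfections and 1.63 and 1.63 in K562, and that of chr6:7168564, at 2.88 and 2.55 and at 1.20 and 1.29. The control of chr12:22235291 entered with K562 values of 1.77 and -0.37.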
